A study of Mus musculus with 6 samples.

Results

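The genes described are those for the proteins of the cytosolic ribosome, measured by RNA-seq in mouse pancreatic acinar cells. They were taken by a rule on the gene symbol, which keeps Rpl and Rps names of ribosomal proteins and leaves out the S6 kinases and binding proteins. The rule took 87 of the 55367 gene symbols. Of these, 76 are the standard genes of the ribosome, 30 of the small subunit and 46 of the large subunit. A further 7 are protein-coding paralogs of a standard gene. The rule was meant to take no pseudogenes, but the annotation lists 4 of its members as such, Rps4l, Rps12l1, Rpl32l and Rpl6l.

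The 6 libraries form 1 group of acinar cells sorted from the pancreas of untreated mice. The mice carried 2 alleles, Pdx1-Cre and Klf5-mCherry-CreERT2. Pdx1-Cre drives recombination in cells of the pancreatic lineage. GFP was the sorting marker, though the genotype label names no GFP reporter, and a library holds 300 cells, prepared with an altered Smart-seq2 method that preamplified the cDNA for 12 cycles. The labels do not tie the libraries to separate mice, so p-values measure only the spread between these samples. A number in the library names parts replicates 4 to 6, called set B, from replicates 1 to 3, called set A. Its meaning is not given, and the sets may be batches but are not groups of the study.

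The ribosome has a small subunit, which reads the mRNA, and a large subunit, which joins the amino acids. Each holds ribosomal RNA and a set of proteins named S or L, generally in 1 copy per ribosome, except the acidic proteins P1 and P2, which form pairs on the stalk of the large subunit. Acinar cells make large amounts of digestive enzyme, and their rough endoplasmic reticulum is packed with ribosomes. Vertebrate ribosomal protein mRNAs as a rule begin with a C followed by a run of pyrimidines, the 5′ terminal oligopyrimidine (TOP) tract, through which the mTORC1 kinase and the protein LARP1 control their translation. The genes also have many processed pseudogenes, copies of the mRNA set back into the genome, which can share reads with them.

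The following windows run from 35 bases before the transcription start to 24 bases after it, so that the start is base 36, and are taken from RefSeq on build GRCm38.p6. They are shown because they hold the start site where a TOP tract would lie. Capitals mark CTTTCC on the transcribed strand. In the Rpl4 window it lies before the start, outside the annotated mRNA. The Rps27l window, shown beside that of Rps27, holds none, and most members' windows hold none within 20 bases of the start either.
Rps27, chr3:90213624-90213683, minus strand: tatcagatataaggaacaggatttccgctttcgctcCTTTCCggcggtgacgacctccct
Rpl38, chr11:114668545-114668604, plus strand: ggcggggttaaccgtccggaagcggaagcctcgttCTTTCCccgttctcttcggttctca
Rpl28, chr7:4792930-4792989, plus strand: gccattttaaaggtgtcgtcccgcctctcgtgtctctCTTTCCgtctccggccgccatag
Rpl15, chr14:18270962-18271021, minus strand: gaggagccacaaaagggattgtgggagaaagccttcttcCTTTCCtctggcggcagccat
Rpl4, chr9:64173352-64173411, plus strand: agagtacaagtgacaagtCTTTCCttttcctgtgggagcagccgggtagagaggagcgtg
Rps27l, chr9:66946051-66946110, plus strand: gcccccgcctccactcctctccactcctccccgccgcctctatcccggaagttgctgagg
RefSeq promoter windows of 300 bases matched 64 of the 87 members, with 76 windows because some genes have several. CTTTCC on the transcribed strand within 20 bases of the start was found in 11 of the 76 windows (14.5%), against 640 of the 32851 windows of all genes (1.95%). On either strand of the whole window it was found in 38 of the 76 members' windows, against 8725 of all windows (26.6%). CCGGAAG, a form of the site that ETS factors such as GABP recognise, was searched on both strands and was found in 34.2% of the members' windows, against 8.86% of all windows. Matches of the 2 motifs may share bases, and a match describes the letters of the window and not a bound site.

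The members held 0.692%, 0.533% and 0.657% of all counts in set B replicates 4, 5 and 6, and 0.728%, 0.768% and 0.675% in set A replicates 1, 2 and 3. The mean share was 0.675% ± 0.080 (SD, n = 6), and the exact Clopper-Pearson 95% intervals of single libraries, which cover counting error only, were narrow, 0.527% to 0.540% in replicate 5 for example. Total counts ranged from 4670819 to 7072270 per library. Ribosomal RNA genes took 58.9% to 60.1% of the counts in set B and 37.4% to 45.8% in set A. Outside those genes the members held 1.54% ± 0.18 of the counts in set B and 1.24% ± 0.073 in set A (SD, n = 3 each). The order of the sets therefore turns with the denominator: the share was lower in set B over all counts and higher in set B outside ribosomal RNA.

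Levels are given per exon length as TPM (counts per kb of exon, scaled to a fixed total over all genes including ribosomal RNA). Counts were made over whole gene spans with introns, so TPM can overstate a gene with long introns. The median member stood at 6.04 ± 0.12 on the log2(TPM + 1) scale (SD over 6 libraries), against 0.46 ± 0.31 for all 21950 protein-coding genes. A standard gene is called measured here where its mean count was 50 or more, a limit set after the values were seen. The lowest mean count among the 68 measured genes was 153. By mean TPM these 68 genes ranked between 31 and 422 among the protein-coding genes, so all of them lay in the top 500. The background expected from counts over 1489 olfactory and vomeronasal receptor genes, which acinar cells should not express, reached at most 3.16% of a measured gene's counts in replicate 5 (Rpl11) and 0.548% in the other libraries.

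Of the standard genes, 8 were not measured. They include Rps10 of the small subunit, and Rpl13, Rpl13a, Rpl23a, Rpl24, Rpl35 and Rpl35a of the large subunit. Each of these encodes a core protein of the ribosome. Rpl13, Rpl24, Rpl35, Rpl35a and Rps10 had no counts in any library. Over the 6 libraries Rpl13a had 93 counts and Rpl23a had 238. These genes share a position inside the spans of other genes. Rpl13 (chr8:123102350-123105244, mm10) lies wholly inside Galnt2l, and Rpl35 (chr2:39001580-39005624) is covered by Wdr38 and Arpc5l on the opposite strand. Rpl35a lies wholly inside the transcript Gm17106. In the 8 genes at most 37.7% of the exon bases lay outside every other gene span, whereas measured genes had 71.7% or more, except Rpl18 with 44.6% and a mean of 33.5 TPM.

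The same held across the annotation: 91.6% of the 1385 protein-coding genes with no exon base of their own had no counts, against 9.26% of the 14245 genes with all exon bases of their own. The zero counts of these members are thus no measure of their RNA. The pseudogenes Rps4l, Rps12l1 and Rpl32l, also without counts, lie wholly inside Tmtc1, Nipa1 and Map7. The paralog Rpl36al had 19 counts in all and 7.61% of its exon bases outside other genes. In contrast, the paralogs Rpl10l and Rpl39l had no counts although no other gene overlaps their exons.

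**Figure D1:**
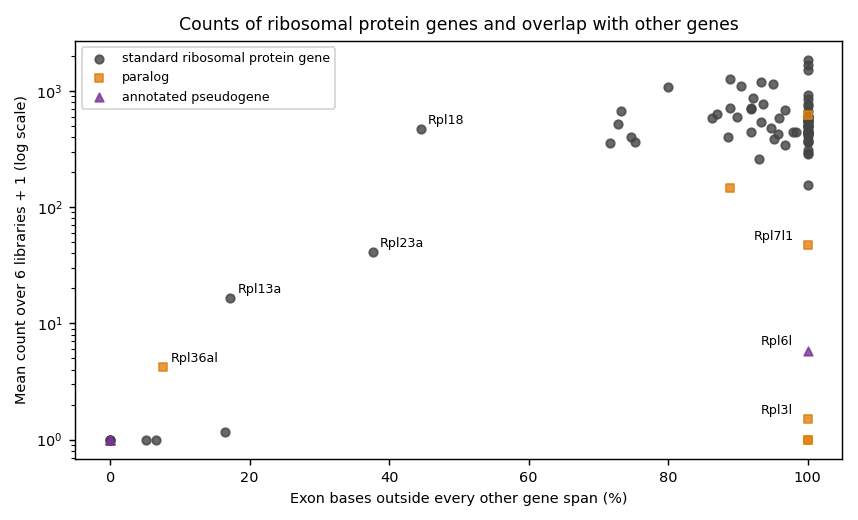
Mean count over the 6 libraries plus 1 (vertical axis, log scale) against the percentage of exon bases outside every other gene span (horizontal axis) for the 87 members. Each point is a gene, circles being standard genes, squares paralogs and triangles annotated pseudogenes. Standard genes with at most 37.7% of their exon bases free of other genes sit on the left, below all measured genes. Of these, Rpl13a and Rpl23a lie above the bottom. Rpl18 at 44.6% sits near the height of the measured genes on the right.

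The measured genes ran from Rpl22 at 16.3 TPM to Rplp1 at 990 TPM, with a median of 83.4 TPM. The 10th and 90th percentiles were 37.3 and 225 TPM. In CPM, counts scaled to the library total without length, they were 57.4 and 171. The order of the genes was close in all libraries: the Spearman correlation of TPM over the 68 genes was 0.850 for the least alike pair of libraries and 0.990 for the most alike, which share the same exon lengths. TPM here divides by all exon bases annotated to a gene, and in 42 of the 68 genes these exceeded 2 times the length of the principal mRNA. Dividing by the principal mRNA instead changed the order, with a Spearman correlation of 0.74 between the 2 scales.

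**Figure D2:**
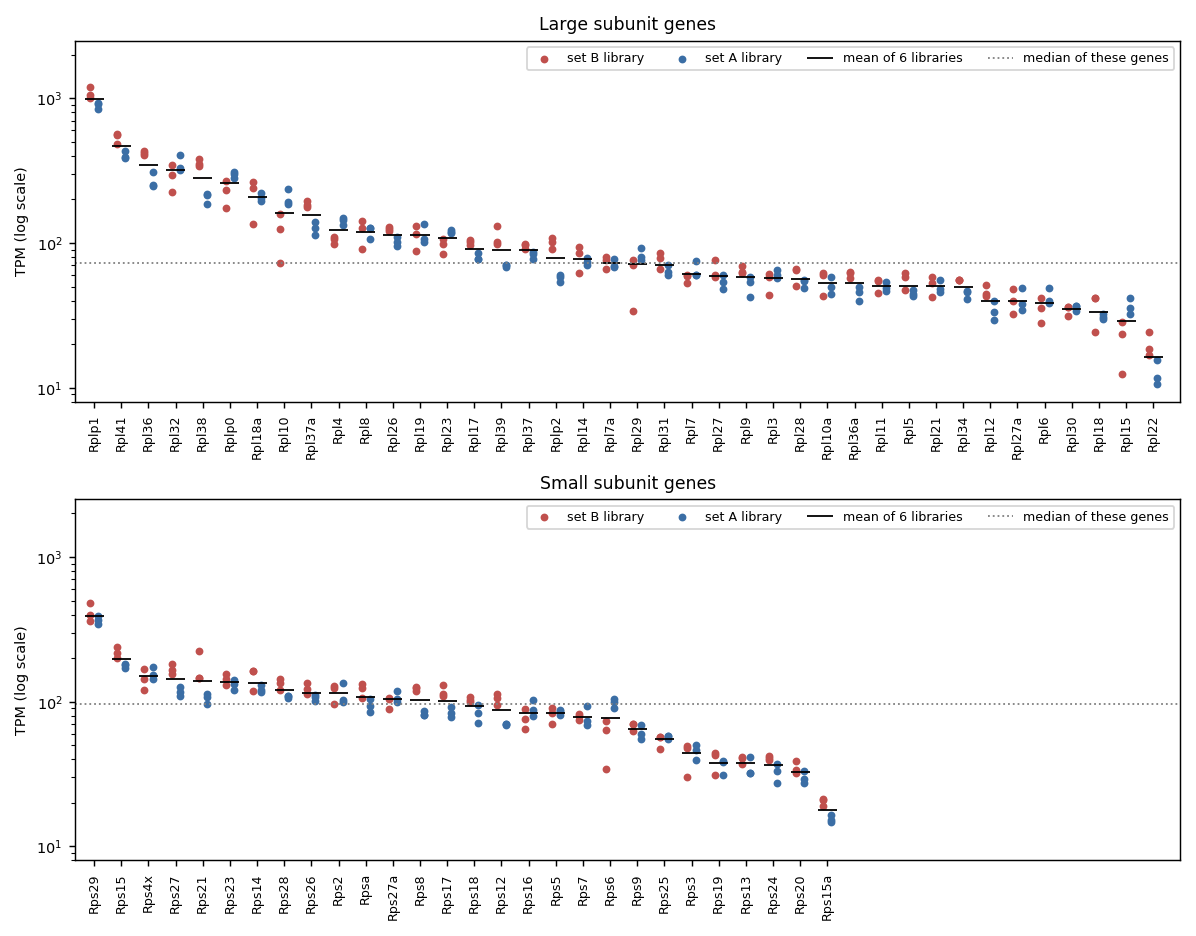
TPM (vertical axis, log scale) of the 40 measured large subunit genes (upper panel) and 28 measured small subunit genes (lower panel), ordered by mean. Points are single libraries, set B to the left of set A, bars are means of 6 libraries, and dotted lines are the medians of the genes shown, 72.4 TPM for the large and 97.0 TPM for the small subunit. Rplp1 stands at the top of the large subunit and Rps29 at the top of the small subunit.

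The large subunit genes lay below the small subunit genes by the median in every library. The medians of the measured large and small subunit genes were 83.2 and 104 TPM in replicate 4, 67.7 and 101 TPM in replicate 5, and 74.4 and 109 TPM in replicate 6, the libraries of set B. In set A they were 64.7 and 84.0 TPM in replicate 1, 70.4 and 97.1 TPM in replicate 2, and 66.0 and 85.6 TPM in replicate 3. The difference, large minus small on the log2(TPM + 1) scale, was -0.44 ± 0.10 over the measured genes and -0.60 ± 0.06 over all members of the 2 subunits without the paralogs (SD, n = 6). The latter value keeps the standard genes that were not measured and the pseudogenes Rps12l1, Rpl32l and Rpl6l, so zero counts enter its medians.

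This order rests on the middle of the distribution and on which genes are counted. Of the 28 small subunit genes, 17 lay above the median of the measured genes, and of the 40 large subunit genes 17 did. Taken as a mean over the measured genes in place of a median, the difference was 0.01 ± 0.05, with the large subunit lower in 2 of 6 libraries. Among members with at least 50% of their 50-base windows unique among annotated transcripts, the large subunit was higher, by 0.34 ± 0.18. By principal mRNA length the difference of medians was -0.35 ± 0.09, negative in 6 of 6 libraries. No test was made, because the genes of a subunit are not replicates and were chosen with results known.

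**Figure D3:**
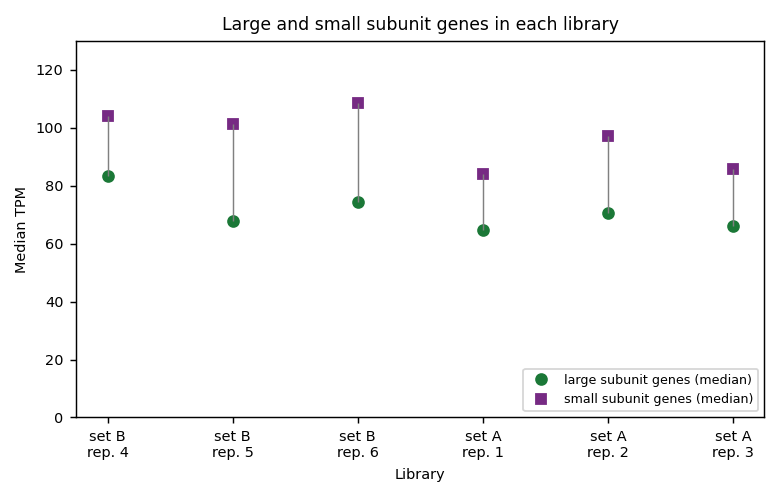
Median TPM (vertical axis) of the 40 measured large subunit genes (circles) and the 28 measured small subunit genes (squares) in each library (horizontal axis), with set B on the left. The circle lies below the square in all 6 libraries, between 64.7 and 83.2 TPM against 84.0 and 109 TPM.

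Of the measured genes, only Rplp1 and Rpl41 lay over 2.5 log2 units from the median of the members without the paralogs, both above it. Rpl41 was just past that limit at 2.66 units and Rps29 just short of it at 2.40. The median used keeps the standard genes that were not measured and the pseudogenes Rps12l1, Rpl32l and Rpl6l. Against the median of the measured genes in each library, Rpl41 stood on average 2.62 units above in set B and 2.33 in set A. Rplp1, which encodes the acidic stalk protein P1, had 1052, 1001 and 1205 TPM in set B and 844, 914 and 922 TPM in set A. In TPM every set B library lay above every set A library for Rplp1, but its edgeR log2 change, set B minus set A, was -0.21 ± 0.28 (SE, adjusted p = 0.69). It stood 3.74 log2 units above the median of the members without the paralogs, the farthest of the measured genes, and 2.44 units above it by principal mRNA length (475 TPM). Its partner Rplp2, the stalk protein P2, had 90.7, 109 and 101 TPM in set B and 53.9, 59.8 and 58.5 TPM in set A. Rplp0, which anchors P1 and P2 to the ribosome, had 270, 174 and 234 TPM in set B and 301, 311 and 280 TPM in set A. The 3 stalk genes thus stood at means of 262, 990 and 78.9 TPM for Rplp0, Rplp1 and Rplp2, or 159, 475 and 79.5 TPM by principal mRNA length, so that Rplp1 was the highest and Rplp2 the lowest on both scales.

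Rpl41, which encodes a very short and basic protein of the large subunit, had 554, 482 and 571 TPM in set B and 391, 390 and 432 TPM in set A. By counts it was the highest member, with a mean of 293 CPM, against 265 CPM for Rplp1. By principal mRNA length Rpl41 and Rplp1 stood at 482 and 475 TPM, which differ by less than the spread between libraries. Rpl36, another large subunit protein gene, averaged 345 ± 84 TPM and Rpl32 averaged 320 ± 59 TPM (SD, n = 6). In the small subunit Rps29, whose product is a small zinc-binding protein, had 481, 361 and 396 TPM in set B and 346, 391 and 364 TPM in set A. The sets overlapped for Rps29. Of the standard genes, Rps15 stood next, at 198 ± 26 TPM, and Rps4x, the X-linked gene of protein S4, at 151 ± 20 TPM. This order holds for exon length only. By principal mRNA length Rps15 stood at 120 TPM and Rps4x at 123 TPM, below Rps28, Rps14 and Rps27 at 261, 261 and 205 TPM, and by counts Rps15 stood at 66.9 CPM and Rpsa led the small subunit at 183 CPM.

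At the other end, Rps15a stood at 18.0 ± 2.9 TPM and Rps20 at 32.4 ± 3.9 TPM (SD, n = 6), the lowest of the measured small subunit genes. Both have annotated mRNAs that are long for this family, 5130 and 3706 bases, and by counts they stood at 60.3 and 71.0 CPM, against a median of 93.8 CPM for the measured small subunit genes. Rpl22 had the lowest level of all measured genes by exon length and by counts, 16.3 TPM and 24.9 CPM, but by principal mRNA length it stood at 47.1 TPM, above Rps15a at 10.5 TPM and Rps20 at 17.2 TPM. Its product is a large subunit protein that in mice is needed for normal alpha-beta T cell development. Rpl15 was next lowest of the large subunit by TPM, at 29.0 ± 10.2.

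Rps27a, whose product is made as a fusion with ubiquitin, stood at 104 ± 9.5 TPM (SD, n = 6). Among the measured genes with a mean of 20 TPM or more, Rpl30, Rps25 and Rpl7a varied least between libraries, with SDs of 0.09, 0.11 and 0.12 on the log2(TPM + 1) scale. Rpl10, Rps6 and Rpl15 varied most, with SDs of 0.60, 0.59 and 0.59. Rpl10 joins the 60S subunit late and Rps6 is the target of the S6 kinases, and both were lowest in replicate 5.

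Some ribosomal proteins have names outside the rule. Rps3a1, which encodes protein S3A, stood at 177 ± 25 TPM, Fau, made as a fusion with protein S30, at 106 ± 15 TPM, and Rack1, a scaffold protein of the small subunit, at 30.1 ± 2.8 TPM (SD, n = 6). Against the cytosolic genes, the 78 genes of mitochondrial ribosomal proteins were low, with a median of 2.26 TPM. Factors that build the ribosome were lower still, with a median of 1.50 TPM over 56 genes, and the RNA polymerase I list had a median of 0.982 TPM over 15 genes. The highest of the factors that build the ribosome was Nop10, a protein of the H/ACA particles, at 16.2 TPM. In the RNA polymerase I list it was Polr1d, a subunit shared by RNA polymerases I and III, at 9.07 TPM. In the list of mTORC1, LARP1 and S6 kinase genes the median was 2.42 TPM over 14 genes, with Eif4ebp1, an inhibitor of translation that mTORC1 phosphorylates, highest at 18.4 TPM and Larp1 at 10.1 TPM.

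Of the 8 paralogs set against their standard genes, 3 were counted in numbers, Rps27l, Rpl22l1 and Rpl7l1. The sequences of Rps27l and Rps27 are shown because the genes of this pair are alike, and a read that fits both could be counted for either. They are the open reading frames of the principal mRNAs of the GENCODE M21 annotation, each 255 bases long, and capitals mark the 61 positions at which they differ.
Rps27l, chr9:66946086-66949516, plus strand: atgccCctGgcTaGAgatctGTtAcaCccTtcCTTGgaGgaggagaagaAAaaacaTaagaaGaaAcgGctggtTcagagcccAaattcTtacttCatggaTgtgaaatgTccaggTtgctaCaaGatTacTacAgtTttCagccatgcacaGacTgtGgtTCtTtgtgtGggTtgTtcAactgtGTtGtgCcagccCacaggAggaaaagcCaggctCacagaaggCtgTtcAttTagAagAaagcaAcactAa
Rps27, chr3:90212522-90213651, minus strand: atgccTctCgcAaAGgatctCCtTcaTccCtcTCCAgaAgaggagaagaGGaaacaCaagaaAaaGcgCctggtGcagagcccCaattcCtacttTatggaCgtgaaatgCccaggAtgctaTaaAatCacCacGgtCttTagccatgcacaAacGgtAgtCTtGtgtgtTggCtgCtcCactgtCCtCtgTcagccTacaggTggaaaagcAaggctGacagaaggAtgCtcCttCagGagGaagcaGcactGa
The frames are 76.1% identical base by base, and the longest stretch without a difference is 11 bases. Rps27 shares its sequence with other annotated genes instead: 8 pseudogenes hold 50-base windows of it, and only 1.35% of the 50-base windows of its mRNA were unique among annotated transcripts, against 77.6% for Rps27l.

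Rps27l, which in human cells is a p53 target, had 262, 197 and 267 TPM in set B and 202, 224 and 185 TPM in set A. Its standard gene Rps27 had 165, 155 and 183 TPM in set B and 126, 110 and 117 TPM in set A. Rps27l was thus higher than Rps27 in every library, by 0.65 ± 0.22 on the log2(TPM + 1) scale (SD, n = 6; exact two-sided sign-flip test p = 0.031, the smallest that 6 libraries allow, adjusted p = 0.036 over 8 pairs). The direction depends on the length. In counts Rps27l had 3713 and Rps27 had 3003, a ratio of 124%, but in CPM the difference of 0.30 did not pass (exact adjusted p = 0.071). By principal mRNA length Rps27l stood below Rps27, at 176 and 205 TPM, a difference of -0.23 with an adjusted exact p of 0.071, and by gene span the difference was -1.29 (0.031).

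Rpl22l1 had 21.5, 13.1 and 21.5 TPM in set B and 20.9, 29.2 and 18.9 TPM in set A. Rpl22 had 16.7, 24.3 and 18.7 TPM in set B and 11.6, 15.6 and 10.6 TPM in set A. Rpl22l1 was higher in 5 of 6 libraries and lower in replicate 5, and the mean difference of 0.36 ± 0.65 did not pass the test (exact adjusted p = 0.22, n = 6). The result depended on the length: by principal mRNA length it was -0.38 (exact adjusted p = 0.25) and in CPM -0.16 (0.75), whereas by gene span it was 1.77 and passed (0.031). Over the 6 libraries the paralog had 864 counts and its standard gene 918.

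Rpl7l1, a nuclear relative of Rpl7 that takes part in building the large subunit, had 3.89, 2.80 and 3.86 TPM in set B and 4.64, 4.06 and 3.36 TPM in set A. Rpl7 had 53.3, 58.8 and 60.2 TPM in set B and 59.9, 75.6 and 60.3 TPM in set A. The ranges of the 2 genes lay far apart, and Rpl7l1 was lower, with a difference of -3.71 ± 0.23 on the log2(TPM + 1) scale (SD, n = 6; exact two-sided adjusted p = 0.036), at 6.15% of the TPM of Rpl7.

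The remaining paralogs had few counts or none. Rpl3l, a paralog of Rpl3 known from heart and skeletal muscle, had 3 counts over the 6 libraries against 3813 for Rpl3. Per exon length this is a ratio of 0.152% (95% counting interval 0.0313% to 0.445%). Rpl10l, which in mice replaces X-linked Rpl10 in the male germ line, had no counts against 7103, which places it at least 1180-fold lower per exon length when a floor of 3 counts over the group is used. Rpl39l, a paralog of Rpl39 with high expression in testis, had none against 2583 and was at least 499-fold lower on the same floor. With so few counts the sign-flip test could give only its smallest p for these pairs, so it adds nothing to the counts. The same holds for Rpl36al and Rps4l, which are also covered by other genes, so no level is read from them. The pseudogene Rpl6l, which no gene overlaps, had 29 counts, of which 8 came from replicate 5.

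**Figure D4:**
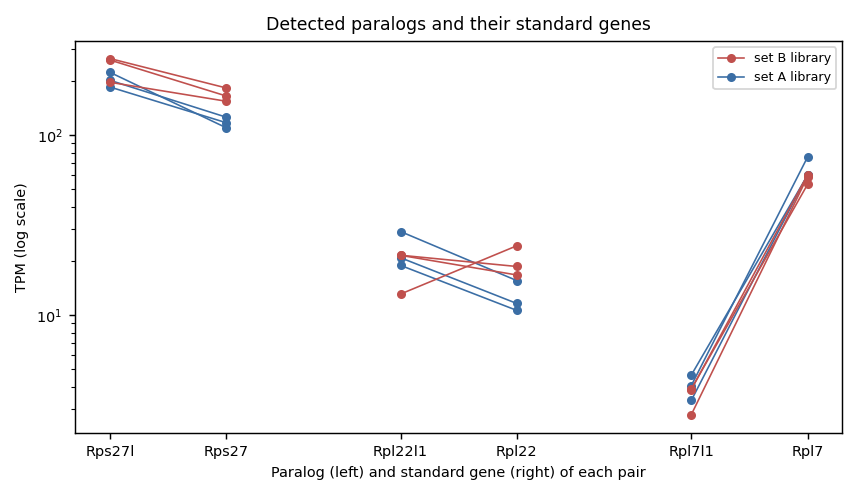
TPM (vertical axis, log scale) of the 3 paralogs counted in numbers and of their standard genes (horizontal axis, paralog left, standard gene right). Each line joins the 2 genes within 1 library, in red for set B and blue for set A. The lines fall from Rps27l to Rps27 in 6 of 6 libraries, cross for Rpl22l1 and Rpl22 in replicate 5, and climb steeply from Rpl7l1 to Rpl7.

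Between the library sets no member passed the test. With edgeR's quasi-likelihood test over 8723 genes, 0 of 73 tested members had an adjusted p under 0.05, where 0.0115% of all tested genes did. At an unadjusted p under 0.05, 10 members were lower in set B (background 9.76% of genes lower) and 0 were higher (background 16.1%). The measured genes leaned to set A: 58 of 68 had a negative set B minus set A log2 change and 10 a positive one. Of the 8417 tested protein-coding genes, 4300 had a negative change and 4117 a positive one. The median of the measured genes was -0.30, against 0.00 over all tested genes. On the log2(TPM + 1) scale the direction was the opposite, with a median of 0.17 for the measured genes. That scale moved all genes too, by 0.28, so that relative to all tested genes the measured genes were at -0.11 by TPM and -0.30 by edgeR.

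The genes that leaned most to set A were Rps6, Rpl10, Rpl15, Rpl4 and Rpl29. Rps6 had 73.5, 34.1 and 63.5 TPM in set B and 91.1, 99.8 and 104 TPM in set A. All set B libraries lay below all set A libraries, and the edgeR log2 change was -1.21 ± 0.39 (SE, adjusted p = 0.10). Rpl10 had 159, 73.1 and 126 TPM in set B and 192, 236 and 187 TPM in set A, again without overlap, with a log2 change of -1.21 ± 0.40 (SE, edgeR adjusted p = 0.11). Rpl15, another large subunit gene, had 28.4, 12.4 and 23.5 TPM in set B and 35.6, 41.8 and 32.1 TPM in set A. Its log2 change was -1.19 ± 0.40 (SE, edgeR adjusted p = 0.11).

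Rpl4, which lines the exit tunnel of the large subunit, had 110, 98.6 and 106 TPM in set B and 144, 149 and 132 TPM in set A. Its libraries were close within each set, and its log2 change was -0.92 ± 0.28 (SE, edgeR adjusted p = 0.094). Rpl29 had 76.8, 33.9 and 70.6 TPM in set B and 76.5, 92.3 and 80.1 TPM in set A, so the sets overlapped. In TPM, 6 of 73 tested members lay wholly lower in set B (background 5.90%), Rpl10, Rps6, Rplp0, Rpl15, Rpl4 and Rpl23, and 29 wholly higher (background 33.3%). Both shares are near those of all genes.

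The genes that leaned most to set B were Rplp2, Rpl38, Rpl13a, Rpl39 and Rps21. Rpl38, a large subunit gene known in mice for its part in translating Hox mRNAs, had 349, 379 and 339 TPM in set B and 187, 213 and 217 TPM in set A. The sets did not overlap, but the edgeR log2 change was 0.28 ± 0.24 (SE, adjusted p = 0.49). Rplp2 had a change of 0.30 ± 0.24 (SE, edgeR adjusted p = 0.47). For Rpl13a, of which 93 reads were counted, Rpl39 and Rps21 the sign turned when the filter on low counts was dropped or when 1 library was left out.

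Which members were called depended on the libraries and the tool. Without replicate 5, edgeR called 8 members lower in set B (background 4.07%): Rpl7, Rpl10, Rps6, Rplp0, Rpl15, Rpl4, Rpl29 and Rpl23. Without replicate 4 it called 4 (background 5.72%), Rpl10, Rps6, Rpl15 and Rpl4, and DESeq2 on all 6 libraries called the same 4 (background 1.73%). No member was called higher in any of these fits, where 4.04%, 16.9% and 4.37% of genes were. With no filter on low counts edgeR called 0 of 77 members, where 0.682% of genes were lower and 2.65% higher.

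The difference between the sets went with mRNA length in rank only. Over the 68 measured genes the Spearman correlation of principal mRNA length with the set B minus set A log2 change was -0.42 and the Pearson correlation -0.09, given as a description of genes that share libraries. The 23 shortest mRNAs, of 345 to 612 bases, had a median change of -0.18, with 8 positive. The 22 of middle length had a median of -0.40 with 1 positive, and the 23 longest, of 914 to 5130 bases, one of -0.42 with 1 positive. Rps15a and Rps20, the longest, lay at -0.09 and -0.29, above the median of the 23 longest.

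**Figure D5:**
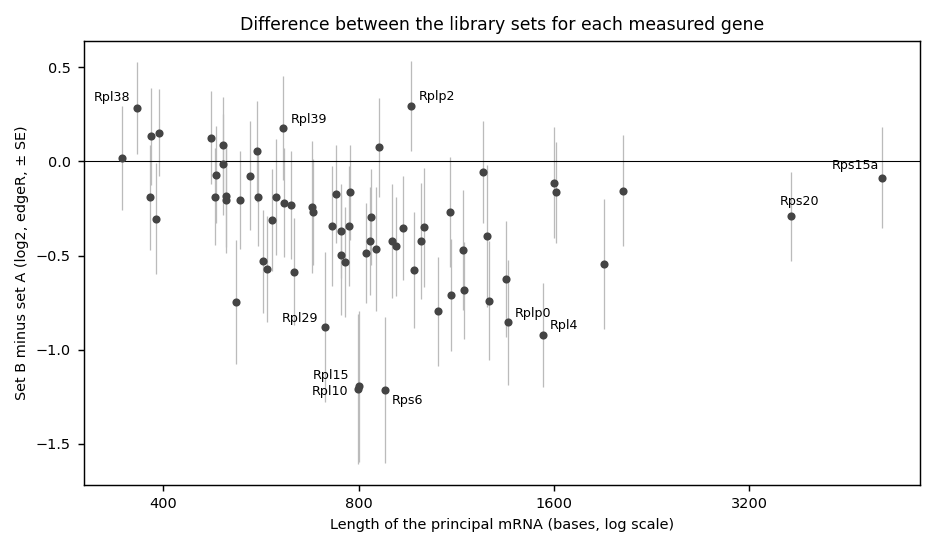
Set B minus set A log2 change by edgeR (vertical axis, points with SE bars) against the length of the principal mRNA (horizontal axis, bases, log scale) for the 68 measured genes. Rps6, Rpl10 and Rpl15 lie lowest, at -1.21, -1.21 and -1.19, Rplp2 and Rpl38 highest, and 58 of the 68 points lie below 0.

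Other measures moved with the sets, and their part in these differences was not tested. Of the 8417 tested protein-coding genes, 4300 had a negative change. DESeq2 called 1.73% of all tested genes lower, and edgeR without replicate 5 called 4.07% lower. Among translation factors and other known TOP mRNAs, 18 of 19 genes had a negative change, with a median of -0.82. Of these genes edgeR called 0, DESeq2 5 lower and edgeR without replicate 5 7 lower. The highest of them, Eef1a1, the factor that brings aminoacyl-tRNA to the ribosome, averaged 201 TPM in set B and 332 TPM in set A, with a log2 change of -1.18 ± 0.37 (SE, edgeR adjusted p = 0.097). Tpt1, the gene of the abundant protein TCTP, had a change of -0.82 ± 0.30 (SE, edgeR adjusted p = 0.13). For mitochondrial ribosomal proteins the change was negative in 57 of 65 genes, with a median of -0.44 and 0 called by either tool. The summed TPM of 9 acinar markers was 110606 to 171845 in set B and 279822 to 320457 in set A, and all 9 were detected. Of them edgeR called 0, DESeq2 called 6 lower, and edgeR called 6 lower without replicate 5. Summed TPM of 7 endocrine markers was 38.8 to 2228 in set B and 8.90 to 38.0 in set A. Ins2 led them, with 796, 20.9 and 1324 TPM in set B and 18.0, 9.44 and 5.49 TPM in set A. Of the endocrine markers edgeR called 0, DESeq2 called 4 higher (background 4.37%), and edgeR called 5 higher without replicate 5 (background 4.04%). In bulk samples, fewer cells of a type and less RNA per cell cannot be told apart. Summed TPM of 9 proliferation markers was 8.19 to 12.3 in set B and 1.66 to 2.72 in set A, and edgeR called 1 of the 4 tested, Top2a, with a log2 change of 4.71 ± 0.47 (SE, adjusted p = 0.022). The sums of 5 erythroid markers were 1.13 to 37.9 TPM in set B and 0 to 0.744 TPM in set A. Replicate 6 stood apart here: Hbb-bs, the highest of them, had 0.769, 0 and 20.3 TPM in replicates 4, 5 and 6. Sums of 7 leukocyte markers were 2.74 to 12.9 TPM in set B and 2.71 to 3.41 TPM in set A. Sums of 6 endothelial markers were 1.41 to 13.5 TPM in set B and 0.885 to 3.57 TPM in set A. The background expected from the receptor genes was not subtracted from these sums. In replicate 5, the library with the highest counts over receptor genes, Adgre1 and Tek had 6.19 and 3.95 TPM. They had 0.547 and 0.501 TPM in replicate 4, and 1.36 and 1.37 TPM in replicate 6. The part of background in these levels was not tested. Ductal markers (51.0 to 173 TPM in set B, 69.2 to 102 TPM in set A) and fibroblast markers (1.71 to 9.49 TPM in set B, 1.17 to 13.9 TPM in set A) overlapped between the sets, as did the leukocyte and endothelial sums.

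Replicate 5 stood apart within set B. Its counts over the olfactory and vomeronasal receptor genes were 326 per Mb, against 52.3 and 109 in the other set B libraries and 26.4 to 39.2 in set A. It had the smallest total, 4670819 counts, and the lowest share of member counts. Without it the median change of the 23 longest mRNAs was -0.22, that of the middle ones -0.20 and that of the shortest 0.05.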

How the data were processed

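RNA was measured in 6 acinar libraries as 1 group. The authors deposited raw counts per gene symbol, whole numbers without normalization, with the counted length as another column. Per the submitters' processing notes the tools were Trim Galore 0.6.4, FastQC, STAR 2.7.9a, SAMtools and featureCounts on build mm10; annotation release, strand setting and treatment of shared reads are not given in the sources used here. The deposited length equals the gene span for all 55253 symbols with 1 interval, so introns were counted.

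Exon lengths came from the GENCODE M21 annotation (99.998% of counts matched). TPM used all exon bases and levels were log2(TPM + 1). Set B was compared with set A over all genes by edgeR 4.0.16 (TMM, filterByExpr, quasi-likelihood test, Benjamini-Hochberg threshold 0.05) with DESeq2 1.42.0 as the alternative, in R 4.3.3. The SE given with an edgeR log2 change is its absolute value divided by the square root of the quasi-likelihood F statistic. Paralogs were compared within libraries by the exact sign-flip test over 64 patterns. On simulated data for this comparison, over 8420 genes edgeR recovered 73.7% of 186 genes changed 4-fold, with 6 unchanged genes among 143 called. The simulation gave all genes the same dispersion, and the largest change of a member, -1.21 log2 for Rps6, was smaller than 4-fold. It therefore does not show the power of the test for the members. Tables and tests ran in Python 3.11.15 with pandas 2.3.3, scipy 1.17.1, matplotlib 3.10.9 and numpy 2.4.6. Library totals of 4670819 to 7072270 counts limit the counting precision. For the share of member counts the spread between libraries was wider than the counting intervals.

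The members and lists were chosen with earlier results of these data known. Named genes were the 3 highest and lowest members per subunit, the paralog pairs, members over 2.5 log2 units from the median, the 5 largest changes each way between the sets, the 3 most and least variable with 20 TPM or more, the stalk genes, Rps27a, members without counts, Rps3a1, Fau and Rack1, and the 2 highest genes of other lists. Rpl11, Rpl28, Rpl18, Rpl32, Rpl23, Rpsa, Rps28 and Rps14 were also named after their values were seen. Some genes that the rule takes are not reported here.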

Additional observations from a re-analysis of the deposited data

Results flagged for a closer look

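Of 42 values tested in the group of 6 libraries, 6 had 1 library far from the others. The rule would flag about 1 in 20 independent values. These values share the same libraries, and some genes were named for their spread or set difference, so their number cannot be set against that rate. Genes with fewer than 2 counts in all were left out, a limit set after the values were seen. In replicate 5, Rpl29 was low at 33.9 TPM (others 70.6 to 92.3), Rpl3 was low at 43.9 TPM (others 57.6 to 64.8) and Rps25 was low at 47.4 TPM (others 55.3 to 58.4). The poorly counted Rpl3l and Rpl6l were high in replicate 5, at 0.567 and 4.28 TPM, and rest there on 2 and 8 counts. In replicate 2, Rpl7 was high at 75.6 TPM (others 53.3 to 60.3). Of these 6 values, 5 fall on the library with the highest counts per Mb over receptor genes, 326, and whether these are linked was not tested.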

How the results depend on the processing

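The share of counts was 1.39% outside ribosomal RNA genes and was 0.657% to 0.704% with any 1 library left out. The median level (6.04) was 5.73 by gene span, 6.21 in CPM, 6.77 without ribosomal RNA, 6.31 for members with a mean count of 10 or more, 6.40 by principal mRNA length and 6.25 for members with mostly unique windows, and 6.00 to 6.06 over all members leaving out 1 library. Over the measured genes it was 6.39, 6.56 by principal mRNA length and 6.40 in CPM.

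Large minus small was -0.60 over all members without the paralogs, which keeps the unmeasured genes and the pseudogenes Rps12l1, Rpl32l and Rpl6l. It was -0.39 by gene span, -0.39 by uncovered exon length and -0.30 in CPM. It was -0.52 for members with a mean count of 10 or more, -0.44 by principal mRNA length and -0.30 as a mean. Over the measured genes it was -0.44, -0.35 by principal mRNA length and -0.26 in CPM. It reversed to 0.34 for members with mostly unique windows and to 0.0082 as a mean over measured genes; the cause was not tested. Without 1 library it was -0.61 to -0.58.

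Rps27l minus Rps27 reversed to -1.29 by gene span and -0.23 by principal mRNA length, and Rpl22l1 minus Rpl22 to -0.16 in CPM and -0.38 by principal mRNA length, since the lengths of the 2 genes differ. Of the 8 pairs, 7 passed in the main test, 8 by gene span, and 6 in CPM or by principal mRNA length. These numbers include Rpl3l, Rpl10l, Rpl36al, Rpl39l and Rps4l, whose few or missing counts fixed the smallest p in advance. These pairs also enter the adjustment over the 8 pairs. Only the outcomes for Rps27l, Rpl22l1 and Rpl7l1 were open. With 5 libraries the sign-flip test cannot pass, and 0 of 8 pairs did. Members called between the sets numbered 0 in the main fit, 4 with DESeq2 and 0 to 8 without 1 library. The sign turned without the filter for Rpl13a (-0.060), Rpl39 (-0.065) and Rps21 (-0.14). Without 1 library, changes ran from -0.082 to 0.35 for Rpl13a (negative without replicate 2 or 6), -0.040 to 0.35 for Rpl39 (without replicate 6) and -0.029 to 0.20 for Rps21 (without replicate 3).

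Alternatives on mRNA length, measured genes and unique windows were chosen after seeing the data. The planned restriction to genome-unique exons was not run. No paired analysis was possible because the 6 libraries form 1 group and the sets share no replicate number.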
